A study of Mus musculus with 13 samples.

Results

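The study sorted the same kind of cell, CD4+ T cells grown under Th17 conditions from STAT5 tetramer-deficient (DKI) mice, in 2 separate sets that were left without added chemokine. The first set, called the DKI pair here, has 2 libraries and accompanies 2 wild-type (WT) libraries. The second, called the noCCL17 set, has 3 libraries and is the control of an experiment in which 3 further DKI cultures received the chemokine CCL17. Both sets carry the same genotype, strain and treatment label, so a comparison between them shows how far untreated cultures of this genotype differ from one set to the other. The 5 libraries are 5 of the 13 in the series, which also holds sorted myeloid cells of DKI mice.

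All mice were on a C57BL/6J background, with no age or sex given. DKI mice carry knock-in changes in both Stat5a and Stat5b that leave STAT5 dimers and block tetramers, in every cell and not only in T cells. They were immunized with a myelin oligodendrocyte glycoprotein peptide (MOG) in complete Freund's adjuvant, without pertussis toxin for the T cell cultures according to the series design, although a protocol text shared by all samples mentions the toxin. Spleen and lymph node cells taken on day 14 were expanded with the peptide for 3 days, and CD4+ T cells were then sorted. The labels do not state whether replicates came from separate mice or cultures, nor how many mice were pooled. The p-values below therefore measure only the spread between libraries, which may be technical. That spread is taken over all the Th17 libraries, including the WT libraries and those that received CCL17. The spinal cord monocytes used below to divide the genes came from DKI mice that also received pertussis toxin, and are 1 library.

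Th17 cells are helper T cells that make IL-17A, IL-17F and IL-22, and in this model of multiple sclerosis turn harmful when they also make the growth factor GM-CSF (Csf2). STAT5, activated by IL-2 and related cytokines, pairs into dimers that can join into tetramers on neighbouring DNA sites. In a culture begun from whole spleen and lymph node, macrophages, B cells and other cells that present the peptide grow or survive beside the T cells until the sort.

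Levels are given as log2(RPKM + 1), where RPKM is reads per kilobase of gene scaled to the library's assigned reads, so a difference understates the change of a gene near 0. Genes that reached an RPKM of 1 in 2 or more of the 5 libraries were tested, 11507 of 21073. Those at least 2 log2 units higher in spinal cord monocytes than in the mean of the DKI pair, 760 genes, are called cord-monocyte genes, and the other 10747 the remaining genes. This division uses the level in the DKI pair, so a gene that happens to read low there falls more easily into the first class, and the class totals can tilt towards higher values in the noCCL17 set. Divided by the WT pair instead, which the comparison does not use, 544 cord-monocyte genes were called instead of 545 (71.7% of the class). The WT pair accompanies the DKI pair, so this division cannot remove a tilt that both pairs share. Divided by the mean of all 5 libraries, 440 cord-monocyte genes were called, and 1349 of the remaining genes were higher. That mean includes the noCCL17 set, so genes high there leave the first class more easily. Near the limit, the 30 genes up to 0.1 above it had a median difference of 0.51 and the 34 genes up to 0.1 below it one of 0.44.

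Before any test the 2 sets stood apart. Across the tested genes the DKI pair correlated at r = 0.961 and the noCCL17 libraries at 0.980 to 0.995, whereas libraries of different sets correlated at 0.852 to 0.911. Among the remaining genes without antigen receptor segments the values across sets were 0.941 to 0.954. Estimated depth was 18000000 and 20000000 assigned reads in the DKI pair and 13600000 to 14400000 in the noCCL17 set, within the 12600000 to 31800000 of the series. Replicates 2 and 3 of the noCCL17 set lay closer to each other than to replicate 1, with a median absolute difference of 0.07, against 0.16 from replicate 1 and 0.23 within the DKI pair. They still differed by more than counting noise, since 16.7% of genes passed a chi-square limit that 5% would pass by counting alone. Chi-square per gene was 2.41 between them, against 30.2 and 32 between each and replicate 1. The limit cannot tell separate cultures from repeat preparations of 1 culture. They are counted as 2 libraries here, with the averaged form given below.

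With limma and Benjamini-Hochberg adjustment, 3823 genes differed between the sets at an adjusted p under 0.05, or 33.2% of those tested. The noCCL17 set was higher for 1777 genes (15.4%) and lower for 2046 (17.8%). The higher genes held the large differences: of those called, 417 were higher by 2 or more and 7 lower by 2 or more, while the median of all genes was -0.01. The levels of the 2 sets did not overlap for 6399 genes, or 55.6% of those tested. With replicates 2 and 3 averaged into 1 library, as if they were a single culture, 898 genes were higher and 1079 lower, and 1974 of these were among those called with 3 libraries. The balance of directions depends on scaling: 46.5% of calls were higher as deposited, 38.5% when each library was scaled to a fixed sum (TPM) and 35.9% after quantile normalization, whereas the higher calls outnumbered the lower with library weights (52.7%) and with the trend on gene length removed (53.2%).

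**Figure D1:**
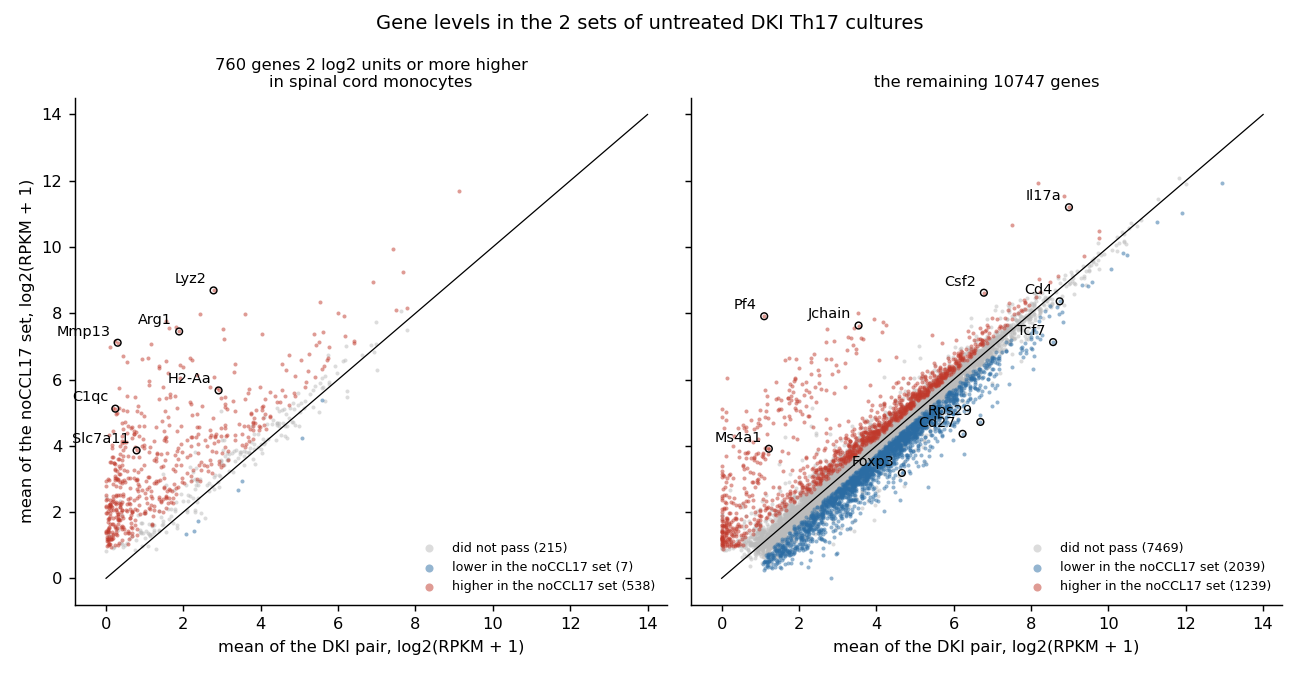
Mean level of each gene in the DKI pair (x axis) and the noCCL17 set (y axis), both as log2(RPKM + 1), for the 760 cord-monocyte genes on the left and the remaining 10747 on the right. Points on the black line have equal means. On the left 538 genes are higher (red) and 7 lower (blue) in the noCCL17 set, and on the right 1239 are higher and 2039 lower.

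The cord-monocyte genes differed most. Of the 760, 538 were higher in the noCCL17 set (70.8%) and 7 lower (0.921%), with a median difference of 1.20. Of the 10747 remaining genes, 1239 were higher (11.5%) and 2039 lower (19%), with a median of -0.04. Weighted by gene length, the cord-monocyte genes took 1.87% and 2% of the RNA signal in the DKI pair and 4.01%, 5.87% and 5.9% in the noCCL17 set, against 36.5% in the spinal cord monocytes themselves. The filter on low values adds to this tilt: a gene under an RPKM of 1 in both DKI libraries was tested only because the noCCL17 set was higher. Counts of marker genes are therefore a description, and the list members that entered this way are counted below. Among the 538 higher genes as a whole they were not counted. Each list count is to be read beside the shares over all tested genes, 15.4% higher and 17.8% lower. In bulk samples such as these, more cells of a type and more RNA per cell cannot be told apart.

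Macrophage and monocyte markers were higher in the noCCL17 set for 18 of 18 listed genes, with a median difference of 4.09, and 5 of them entered through the noCCL17 set alone. Lyz2, the lysozyme of myeloid cells, read 2.1 and 3.46 in the DKI pair and 8.43, 8.79 and 8.85 in the noCCL17 set, a difference of 5.91 ± 0.38 (standard error of the fit, n = 2 and 3; limma adjusted p = 4.6e-05). The sets were far apart for this gene, and the spread inside the DKI pair was a small part of the gap. Itgam, which encodes the CD11b integrin chain, differed by 3.73 ± 0.13, Tyrobp, the DAP12 signalling adaptor, by 4.39 ± 0.30, and Fcgr3, a low-affinity IgG receptor, by 4.28 ± 0.23 (limma adjusted p = 1.85e-06, 6.1e-05 and 1.75e-05). The 18 markers summed to 41.9 and 53.3 RPKM in the DKI pair and to 921, 1510 and 1560 in the noCCL17 set, so they were detected in each set and the DKI pair had only 1 marker at 0, in replicate 1.

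Chemokines and matrix proteases that activated macrophages can make had the largest differences among the named cord-monocyte genes. Which cells made them here was not tested. Ccl2, a ligand that draws CCR2-bearing monocytes, read 0.10 and 0.38 in the DKI pair and 6.48, 7.53 and 7.43 in the noCCL17 set (difference 6.91 ± 0.74). Ccl7, a related ligand, was listed at 0.19 and 0.00 against 5.96, 7.46 and 7.51 (6.88 ± 0.69). Ccl6 differed by 6.24 ± 0.14 with values of 1.49 and 1.59 against 7.75, 7.69 and 7.89. The limma adjusted p-values were 0.000429, 0.000344 and 1.27e-07, in the order given. In the first 2 of these genes replicate 1 of the noCCL17 set was the lowest of its set, and in Ccl6 the 3 libraries were level. Ccl2 and Ccl7 were under an RPKM of 1 in both DKI libraries and entered through the noCCL17 set alone.

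Mmp12, the macrophage elastase, stood at 0.48 and 0.38 in the DKI pair and at 6.43, 6.83 and 6.87 in the noCCL17 set (6.28 ± 0.17, adjusted p = 2.99e-07). Mmp13, a collagenase, stood at 0.32 and 0.29 against 6.41, 7.42 and 7.50 (6.81 ± 0.49, adjusted p = 7.48e-05). Both lay on the chromosome 9 metalloprotease cluster, and both were higher in the noCCL17 set than in the spinal cord monocytes, where Mmp12 read 3.89 and Mmp13 2.86. The acute-phase gene Saa3 (6.01 ± 0.35) and the fungal-glucan receptor Clec7a (5.95 ± 0.38) completed the 8 cord-monocyte genes with the largest differences, with adjusted p = 3.72e-05 and 4.35e-05 in the limma fit. Mmp12, Mmp13 and Saa3 entered through the noCCL17 set alone, with Saa3 at 0.60 and 0.45 in the DKI pair. Their p-values, like those of Ccl2 and Ccl7, describe genes that the filter and the division favoured.

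The upstream 250 bases of Mmp12, Mmp13 and Saa3 are shown as examples. These 3 genes were close to 0 in the DKI pair and among the highest of the class in the noCCL17 set. The same held for Ccl2 and Ccl7, whose stretches are not shown. Only the motif named for each gene is marked, so the 3 stretches do not show how common these letters are among the highest genes. The letters are those of RefSeq on GRCm38.p6, 5′ to 3′ on the gene's strand and ending at the last base before the start site, with capitals for a match to a C/EBP motif (TTGCNNAA, Mmp12 and Saa3) or an AP-1 motif (TGANTCA, Mmp13) on either strand. C/EBP factors are regulators of myeloid genes, and AP-1 factors are dimers of Fos, Jun and related proteins. Mmp12 lies on the plus strand at chr9:7344147-7344396, Mmp13 on the plus strand at chr9:7272264-7272513, and Saa3 on the minus strand at chr7:46715677-46715926.
Mmp12: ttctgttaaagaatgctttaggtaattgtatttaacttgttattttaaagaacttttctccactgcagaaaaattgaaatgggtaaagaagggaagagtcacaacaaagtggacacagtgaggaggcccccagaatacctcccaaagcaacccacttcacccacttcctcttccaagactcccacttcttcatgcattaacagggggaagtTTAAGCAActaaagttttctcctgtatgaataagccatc
Mmp13: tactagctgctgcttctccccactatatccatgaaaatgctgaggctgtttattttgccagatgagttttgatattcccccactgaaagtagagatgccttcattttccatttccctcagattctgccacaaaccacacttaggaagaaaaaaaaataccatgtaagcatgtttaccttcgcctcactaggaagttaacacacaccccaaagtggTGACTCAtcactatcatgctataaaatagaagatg
Saa3: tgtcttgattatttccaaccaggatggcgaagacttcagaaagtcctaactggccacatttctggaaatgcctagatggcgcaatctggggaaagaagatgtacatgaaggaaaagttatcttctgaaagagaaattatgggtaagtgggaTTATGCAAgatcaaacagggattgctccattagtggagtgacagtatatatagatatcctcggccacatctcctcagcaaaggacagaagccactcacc
The match began 39 bases before the start site in Mmp12, 35 in Mmp13 and 99 in Saa3.

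Of the 11507 tested genes, 8951 had such a stretch. The C/EBP letters were in 14.3% of the stretches of cord-monocyte genes that were higher in the noCCL17 set, in 8.67% of those of cord-monocyte genes that were not called and in 7.49% of all. The AP-1 letters were in 8.11%, 8.67% and 4.31%, so there the called and uncalled genes of the class were alike. The GAS-like letters bound by STAT dimers (TTCNNNGAA) were in 5.97% of the higher cord-monocyte genes, 5.08% of the higher remaining genes, 5.73% of the lower remaining genes and 6.04% of all. These are shares of letters in a window and say nothing on whether a factor was bound there.

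Other genes of phagocytes followed the same direction. The 12 complement and Fc receptor genes were higher, 6 of them entering through the noCCL17 set alone, with a median difference of 4.0. C1qc, a chain of the complement starter C1q, read 0.07 and 0.41 against 5.12, 5.10 and 5.13 (4.88 ± 0.11, adjusted p = 1.27e-07). Replicate 1 of the noCCL17 set was not lower for C1qc, unlike for Ccl2. Lipid phagocyte genes were higher for 15 of 15 (median 2.12), 3 of which entered through the noCCL17 set alone, among them Gpnmb, a glycoprotein of lipid-loaded macrophages (5.57 ± 0.42), the lipid receptor gene Trem2 (4.26 ± 0.27) and Apoe (3.80 ± 0.29), with adjusted p = 8.78e-05, 4.21e-05 and 9.14e-05. Inflammatory monocyte effectors were higher for 12 of the 14 tested of 16 listed (median 3.85), and 6 of the 12 entered through the noCCL17 set alone. Arg1, which breaks down arginine, read 1.34 and 2.44 against 7.67, 7.38 and 7.30 (5.56 ± 0.40, adjusted p = 7.48e-05).

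Genes of antigen presentation were higher by less. Of 13 MHC class II genes 7 were higher and none lower (median 0.87), and 1 of the 7 entered through the noCCL17 set alone. Cd74, the invariant chain, stood at 4.97 and 5.80 against 7.09, 7.51 and 7.55 (2.00 ± 0.23, adjusted p = 0.000607). H2-Aa, a class II alpha chain, read 2.01 and 3.81 against 5.48, 5.77 and 5.75 (2.75 ± 0.46, adjusted p = 0.00285) and was among the cord-monocyte genes with the widest spread inside the DKI pair. Of 12 listed dendritic cell markers 8 were tested. Only Itgax (CD11c) was higher (2.04 ± 0.16), and it entered through the noCCL17 set alone, at 0.58 and 0.30 in the DKI pair. Only Ccr7, which T cells also use, was lower. Ccl22, a ligand of the receptor CCR4 and a product of activated dendritic cells, was as high in DKI replicate 2 (5.38) as in the noCCL17 set (4.22, 5.12 and 4.99) and low in DKI replicate 1 (2.34), and did not pass the test (adjusted p = 0.383).

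Of 12 listed neutrophil and granule markers 10 were tested and 9 were higher, 5 of which entered through the noCCL17 set alone. S100a8, a calcium-binding alarmin, read 0.99 and 1.32 against 7.90, 6.57 and 6.70 (5.90 ± 0.59, adjusted p = 0.000344), and S100a9, its partner, 1.43 and 2.18 against 8.12, 7.22 and 7.41 (5.78 ± 0.54, adjusted p = 0.000244). Here replicate 1 was the highest of the noCCL17 set, opposite to its place for Ccl2 and Ccl7. Summed neutrophil markers came to 640 RPKM in replicate 1 and 305 and 341 in replicates 2 and 3, while summed macrophage markers were lowest in replicate 1. In the withCCL17 libraries replicate 1 was also the highest, with neutrophil sums of 910, 326 and 308. The difference of replicate 1 from the mean of replicates 2 and 3 correlated between the noCCL17 and withCCL17 sets at r = 0.77 across 11507 genes that share the depth and composition of these 6 libraries.

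**Figure D2:**
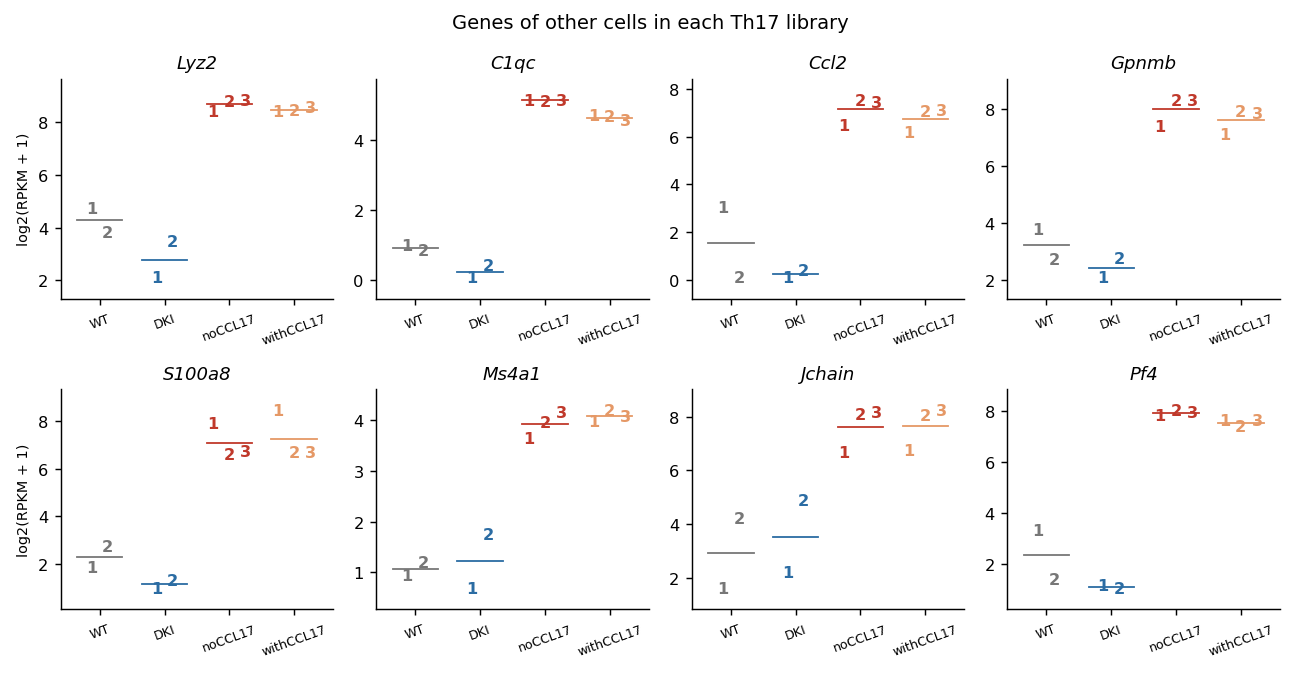
Levels of 8 genes of other cells, as log2(RPKM + 1), in the 10 Th17 libraries. Each digit is 1 library, placed at its level and showing its replicate number, and lines are group means. Lyz2 reads 2.1 and 3.46 in the DKI pair and 8.43 to 8.85 in the noCCL17 set, and for each of the 8 genes the noCCL17 set lies above the DKI pair.

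The remaining genes were meant to show the state of the T cells, but their largest positive differences went against that reading. The 8 largest, antigen receptor segments and unnamed models left aside, were Pf4, Ccl8, Ppbp, Cd5l, Serpinb2, Jchain, Atp6v0d2 and Cxcl3, of which only Cxcl3 was on a T cell list. Ccl8, Ppbp, Cd5l and Serpinb2 entered through the noCCL17 set alone. Ppbp, a platelet chemokine, was listed at 0 in both DKI libraries and read 4.70, 5.36 and 5.27 in the noCCL17 set. Pf4, also of platelets and megakaryocytes and made by some macrophages, read 1.15 and 1.06 against 7.80, 8.0 and 7.93 (6.80 ± 0.43, adjusted p = 4.21e-05). Ccl8 (5.92 ± 0.36) and Cd5l, a secreted macrophage protein (4.49 ± 0.63), are macrophage products that were low in the spinal cord library, at 1.74 and 0.08, and so escaped the division. The class is therefore called by its rule here and not by a cell type.

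B cell and plasma cell genes fell in this class as well, since they were low in the spinal cord monocytes. Of 12 listed B cell markers 10 were tested and were higher (median 1.92), 2 of them entering through the noCCL17 set alone. Ms4a1, which encodes CD20, read 0.69 and 1.75 against 3.64, 3.95 and 4.14 (2.69 ± 0.28, adjusted p = 0.000386), and Cd79a, a signalling chain of the B cell receptor, 1.95 and 2.76 against 4.25, 4.58 and 4.89 (2.22 ± 0.26, adjusted p = 0.000646). Jchain, which joins IgM and IgA units, read 2.19 and 4.88 against 6.68, 8.07 and 8.15 (4.10 ± 0.97, adjusted p = 0.0129). The DKI pair was itself uneven, with replicate 2 the higher for each of these 3 genes. Plasma cell markers were higher for 4 of the 9 tested, 1 of them entering through the noCCL17 set alone. Summed B cell markers came to 10.2 and 22.3 RPKM in the DKI pair and 81.2, 113 and 130 in the noCCL17 set, with no marker at 0 in either set.

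Immunoglobulin segments, whose short and near-identical sequences make single values uncertain, were higher for 81 of 87 heavy-chain (Ighv) and 85 of 93 kappa-chain (Igkv) variable segments. Immunoglobulin genes and segments together took 0.0616% and 0.163% of the length-weighted signal in the DKI pair and 0.531%, 1.07% and 1.16% in the noCCL17 set. Without antigen receptor segments, 1052 of the remaining genes were higher and 1981 lower.

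Smaller groups of non-T cell genes were also higher. Of 8 mast cell and basophil markers 6 were tested and 4 were higher, and each of these 4 entered through the noCCL17 set alone, among them Mcpt8, a basophil protease (3.32 ± 0.42, adjusted p = 0.00096). Platelet and megakaryocyte markers were higher for 4 of the 5 tested of 6 listed, 2 of them entering that way. Fibroblast and stromal markers were higher for 3 of the 4 tested of 9 listed, 1 of them entering that way. Against this, Cd8b1, a defining chain of CD8 T cells, read 3.15 and 3.01 against 2.94, 2.62 and 2.62 and did not pass the test (-0.35 ± 0.25, adjusted p = 0.315). Of 4 tested NK and innate lymphoid markers only Tyrobp was higher, a gene that myeloid cells share. The labelled cell type was borne out by its defining genes in all 5 libraries, with Cd4 at 8.26 to 8.85 and Cd3e at 7.93 to 8.26.

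Most genes that define T cells were slightly lower in the noCCL17 set. Of 16 identity genes 10 were lower and none higher (median -0.36). Cd4 read 8.85 and 8.63 against 8.53, 8.26 and 8.29 (-0.38 ± 0.12, adjusted p = 0.0435), and Trac, the T cell receptor alpha constant region, 9.27 and 9.35 against 8.82, 8.83 and 8.90 (-0.46 ± 0.09, adjusted p = 0.0049). Cd3e did not pass (-0.21 ± 0.12, adjusted p = 0.205). Lat, the adaptor that relays receptor signals, was lower by more (-0.70 ± 0.10, adjusted p = 0.00153), as was Cd27, a survival receptor that T cells lose as they differentiate, at 5.92 and 6.55 against 4.32, 4.37 and 4.39 (-1.87 ± 0.16, adjusted p = 0.000173). The 16 genes summed to 4420 and 4390 RPKM in the DKI pair and 3380 to 3600 in the noCCL17 set. On a scale that held these genes equal, the differences below would read higher. The share of signal in cord-monocyte genes was larger in the noCCL17 set, as given above, and its part in the lower T cell genes was not tested.

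The gene of GM-CSF was higher in the noCCL17 set. Csf2 read 7.26 and 6.30 in the DKI pair and 8.54, 8.69 and 8.62 in the noCCL17 set, a difference of 1.84 ± 0.26 (adjusted p = 0.00142). It held its call under all 18 alternatives. Spinal cord monocytes read 0.81, but macrophage and B cell genes named above were also low there, and the source cell of Csf2 was not tested. Of 15 tested Th17 cytokines and receptors 4 were higher and 1 lower (median 0.37). The higher ones were Csf2, Il17a, Il22 and Ccl20, and the lower one Il6ra, the receptor chain for IL-6, which starts the Th17 programme (4.15 and 4.72 against 3.00, 3.36 and 3.48, -1.15 ± 0.19, adjusted p = 0.00296).

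Il22, an epithelial barrier cytokine, read 4.26 and 3.33 against 5.05, 5.53 and 5.46 (1.56 ± 0.30, adjusted p = 0.00548). Il17a read 10.38 and 7.57 against 10.56, 11.52 and 11.52 (2.23 ± 0.74, adjusted p = 0.0481), so that DKI replicate 1 lay just under the lowest noCCL17 library and DKI replicate 2 far below it. The call for Il17a ended in 13 of 18 alternatives, with a difference of 0.82 (adjusted p = 0.296) when DKI replicate 2 was left out and 3.63 (adjusted p = 0.00346) when DKI replicate 1 was. Il17f, its close relative, read 8.61 and 5.51 against 7.33, 8.41 and 8.60 and did not pass (1.05 ± 0.83, adjusted p = 0.369).

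Of the Th17 transcription factor genes, 1 of 16 was higher and 1 lower. The lower factor was Ikzf3, Aiolos (-1.0 ± 0.17, adjusted p = 0.00351), and the higher 1, Basp1, was a cord-monocyte gene. Ccr6, a chemokine receptor of Th17 cells, read 5.24 and 2.80 against 3.44, 4.15 and 4.11 and did not pass (-0.12 ± 0.60, adjusted p = 0.903). Il23r, which receives the Th17-sustaining cytokine IL-23, read 4.05 and 2.40 against 3.08, 3.61 and 3.59 and did not pass either (0.20 ± 0.40, adjusted p = 0.737). For both receptor genes the noCCL17 libraries lay between the DKI libraries, with DKI replicate 1 the highest and replicate 2 the lowest.

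Genes listed for pathogenic Th17 cells were higher for 8 of 16 and lower for 1 (median 0.60). Besides Csf2 and Il22 they included Il3, another myeloid growth factor, at 3.10 and 3.42 against 4.27, 4.98 and 5.01 (1.49 ± 0.36, adjusted p = 0.0134). Il3 was listed at 0.00 in spinal cord monocytes, and its source cell was not tested. Cxcl3, a neutrophil chemokine, differed most, at 5.29 and 3.04 against 7.53, 7.87 and 7.84 (3.58 ± 0.53, adjusted p = 0.00184), and read 3.93 in spinal cord monocytes. Of the other 4 that were higher, Ccl3, Ccl4 and Lgals3 were cord-monocyte genes, and Lgals3 (galectin-3) differed by 2.81 ± 0.30 (adjusted p = 0.000445). The fourth was Casp1, the protease that matures IL-1β. Ifng, the Th1 cytokine on the same list, read 8.60 and 8.80 against 8.64, 9.35 and 9.21 and did not pass (0.36 ± 0.38, adjusted p = 0.498).

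The genes of STAT5 itself did not pass the test. Stat5a read 5.42 and 5.43 against 5.37, 5.71 and 5.63 (0.14 ± 0.13, adjusted p = 0.451), and Stat5b 5.93 and 6.02 against 5.68, 5.82 and 5.80 (-0.21 ± 0.09, adjusted p = 0.114). These levels do not check the knock-in, since the changed codons are read like the normal ones. Of 16 IL-2 and STAT5 response genes 1 was higher, Il2ra, the IL-2 receptor alpha chain (8.66 and 8.32 against 8.99, 8.93 and 8.92, 0.46 ± 0.12, adjusted p = 0.0172), and 1 lower, Socs2, a feedback inhibitor (-0.64 ± 0.15, adjusted p = 0.0126). Tnfrsf9, which encodes the costimulatory receptor 4-1BB, was higher (0.84 ± 0.12, adjusted p = 0.00162), and Il2rg, the common gamma chain, was lower (-0.49 ± 0.11, adjusted p = 0.00923). Ccr4, the receptor through which CCL17 acts, was higher without any added CCL17, at 6.23 and 5.87 against 6.63, 6.52 and 6.50 (0.50 ± 0.12, adjusted p = 0.0136).

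**Figure D3:**
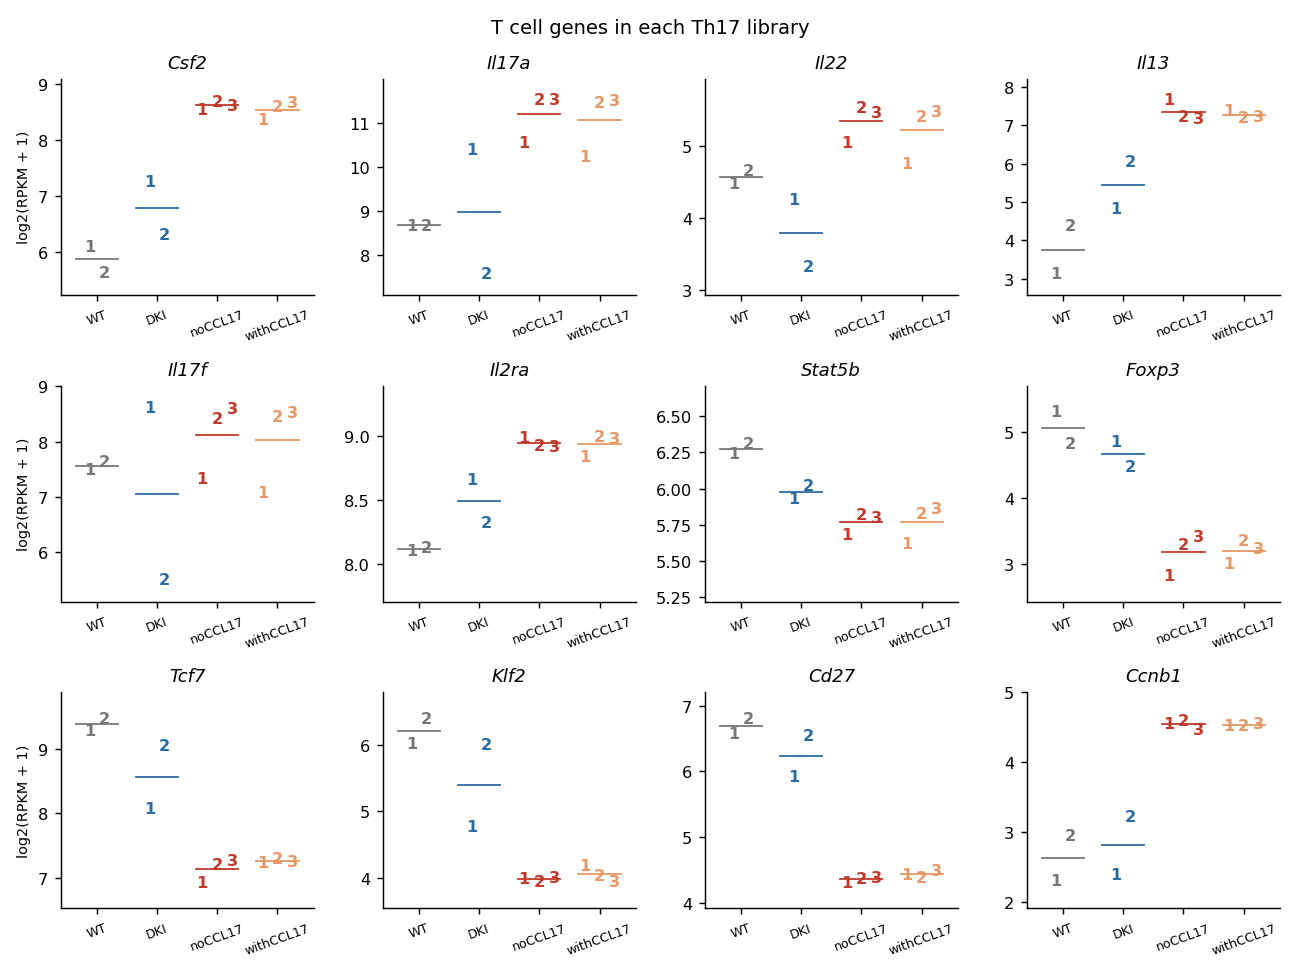
Levels of 12 T cell genes, as log2(RPKM + 1), in the 10 Th17 libraries. Digits are libraries with their replicate numbers and lines are group means, and each panel has its own y axis. Csf2 and Ccnb1 are higher and Foxp3, Tcf7, Klf2 and Cd27 lower in the noCCL17 set than in the DKI pair, while for Il17f the DKI pair spans 5.51 to 8.61 around the noCCL17 values.

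Some regulatory and resting T cell genes were lower. Foxp3, the master regulator of regulatory T cells, read 4.85 and 4.47 in the DKI pair and 2.83, 3.30 and 3.42 in the noCCL17 set (-1.47 ± 0.22, adjusted p = 0.00169). Itgae, the CD103 integrin chain (-1.33 ± 0.18), and Lrrc32, which holds latent TGF-beta at the cell surface (-1.20 ± 0.15), had adjusted p = 0.00106 and 0.000857. On the list of 15 tested regulatory T cell genes 5 were lower and 2 higher (median -0.26), the latter being Il2ra and Tnfrsf9, which activated T cells also carry. Over all tested genes 17.8% were lower and 15.4% higher.

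Of 13 tested naive and memory T cell genes 8 were lower and none higher (median -0.66). Tcf7, which encodes the factor TCF-1 of naive and stem-like T cells, read 8.08 and 9.05 against 6.92, 7.21 and 7.27 (-1.43 ± 0.25, adjusted p = 0.00326). Klf2, a regulator of exit from lymphoid organs, read 4.77 and 6.01 against 3.99, 3.94 and 4.0 (-1.41 ± 0.30, adjusted p = 0.00796). DKI replicate 1 lay between DKI replicate 2 and the noCCL17 set for both genes. Bach2, a repressor of effector genes, differed by -1.06 ± 0.16 (adjusted p = 0.00206) and Foxo1 by -0.58 ± 0.12 (adjusted p = 0.00637).

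Th1 genes were lower for 4 of 16 and higher for 1, the cord-monocyte gene Hlx. Hlx read 0.96 and 0.35 in the DKI pair and entered through the noCCL17 set alone. Cxcr3, the chemokine receptor of Th1 cells, read 3.55 and 3.92 against 2.68, 2.51 and 2.55 (-1.15 ± 0.18, adjusted p = 0.00198), and Il18r1, a chain of the IL-18 receptor, 6.18 and 5.48 against 4.85, 4.69 and 4.60 (-1.11 ± 0.19, adjusted p = 0.00309). Tbx21, the Th1 factor T-bet, did not pass (-0.56 ± 0.22, adjusted p = 0.0834). The Th2 list was mixed, with 3 of 10 higher and 2 lower. Il13, a Th2 cytokine, read 4.84 and 6.05 against 7.66, 7.21 and 7.17 (1.9 ± 0.41, adjusted p = 0.0089), whereas Gata3, the Th2 factor, was lower (-0.47 ± 0.11, adjusted p = 0.0137). The source cell of Il13 was not tested, and some mast cell and basophil markers were also higher, as given above. Pparg was higher (1.91 ± 0.23, adjusted p = 0.000754), a gene of macrophages as well. Follicular helper genes were higher for 2 of 13 and lower for 3, with Bcl6 among the lower (-0.47 ± 0.12, adjusted p = 0.0203). These counts lie near the shares over all tested genes, 15.4% higher and 17.8% lower, beside which the Th1 and Th2 counts also stand.

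Cytotoxic granule genes were split, with 3 of 12 higher and 3 lower, against 15.4% and 17.8% of all tested genes. Ctsw, a granule protease, read 4.59 and 4.89 against 3.44, 2.55 and 2.62 (-1.87 ± 0.31, adjusted p = 0.00294) and Prf1, perforin, was lower by 0.84 (adjusted p = 0.00183), while Srgn, the granule proteoglycan that myeloid cells share, was higher (0.73 ± 0.13, adjusted p = 0.0039). Chemokine receptor and homing genes were lower for 7 of 17 and higher for 2. S1pr1, which guides exit from lymph nodes, was lower (-1.06 ± 0.25, adjusted p = 0.0117). Ccr2 was 1 of the 7 cord-monocyte genes that were lower (5.30 and 4.84 against 4.59, 4.01 and 4.05, -0.86 ± 0.27, adjusted p = 0.0381), although its ligands Ccl2 and Ccl7 were among the highest.

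Of the 7 remaining genes lower by 2 or more, 6 were antigen receptor segments. With segments and unnamed models left aside, the largest negative differences were in H60b (-2.23 ± 0.20), Rps29 (-1.97 ± 0.43), Als2cl (-1.94 ± 0.23), Ctsw, Cd27, Pmel (-1.81 ± 0.17), Ager (-1.74 ± 0.24) and Dgka (-1.73 ± 0.17). H60b encodes a ligand of the receptor NKG2D and read 3.21 and 2.71 against 0.52, 0.99 and 0.68 (adjusted p = 0.000219). Dgka, a lipid kinase that damps T cell receptor signals, read 7.72 and 8.38 against 6.18, 6.41 and 6.36 (adjusted p = 0.000344). Rps29 is short and has near-identical copies in the genome, so its value is uncertain, and its noCCL17 libraries spread from 5.57 to 4.01. Ribosomal protein genes as a list held 3 higher and 2 lower of 25 (median -0.02).

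Several mitotic genes were higher. Of 30 cell cycle genes 9 were higher and none lower (median 0.38). Ccnb1, cyclin B1, read 2.39 and 3.22 against 4.56, 4.60 and 4.47 (1.74 ± 0.24, adjusted p = 0.00142), and Cenpf, a centromere protein, 2.21 and 2.66 against 4.03, 3.6 and 3.61 (1.31 ± 0.20, adjusted p = 0.00217). The 9 were Top2a, Ccnb1, Cdk1, Plk1, Aurka, Kif11, Kif23, Cenpe and Cenpf, which serve mitosis or chromosome separation. Mki67 read 5.52 and 6.16 against 6.68, 5.93 and 5.96, overlapped between the sets and did not pass (0.35 ± 0.29, adjusted p = 0.394). Cdk1, Plk1, Kif11 and Kif23 lost their call without DKI replicate 1. The median over the list rested on the DKI libraries, at 0.95 without DKI replicate 2 and -0.01 without DKI replicate 1.

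Amino acid response and transport genes were higher for 5 of 20 and lower for none, and they split the DKI pair. Of the 5 that were higher, 2 entered through the noCCL17 set alone. The median difference was 0.97 (0.28 without DKI replicate 2 and 1.77 without DKI replicate 1). The genes of this list answer shortage of amino acids or stress through the factor ATF4. Trib3, a pseudokinase of that response, read 5.96 in DKI replicate 1 and 2.44 in replicate 2, against 5.83, 6.18 and 6.20 in the noCCL17 set. Atf5, another ATF4-linked factor, read 6.94 and 3.26 against 6.80, 7.10 and 7.14. For both, DKI replicate 1 was level with the noCCL17 set and only replicate 2 was low, and neither passed the test (adjusted p = 0.19 and 0.187).

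All 20 genes of the list were higher in DKI replicate 1 than in replicate 2, 14 of them by at least 1 log2 unit, and the noCCL17 libraries were all above DKI replicate 2 for each of the 20. Over the list the median level was 6.90 and 4.83 in the DKI pair and 6.59, 6.70 and 6.78 in the noCCL17 set. The WT pair showed the same split by replicate number, with list medians of 6.00 and 4.56, and 10 of the 20 genes at least 1 log2 unit higher in WT replicate 1. Cth, which makes cysteine, had the third widest DKI spread among the remaining genes, antigen receptor segments and unnamed models left aside. It read 4.08 and 0.58 against 4.58, 5.34 and 5.5 (adjusted p = 0.0545).

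The genes of the list that were called lay above both DKI libraries. Slc7a11, the cystine transporter, read 0.92 and 0.67 against 3.45, 4.05 and 4.09 (3.07 ± 0.26, adjusted p = 0.000151). It was a cord-monocyte gene that entered through the noCCL17 set alone. Psat1, an enzyme of serine synthesis, read 6.96 and 6.40 against 7.64, 7.52 and 7.52 (0.88 ± 0.16, adjusted p = 0.00467), and Shmt2, which passes serine carbon to mitochondrial folate, 7.40 and 6.57 against 7.89, 7.87 and 7.82 (0.88 ± 0.25, adjusted p = 0.0268). Asns, asparagine synthetase, read 7.44 and 5.48 against 7.73, 7.90 and 7.92 and did not pass (1.39 ± 0.56, adjusted p = 0.0873).

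The upstream 250 bases of Slc7a11 and Asns are shown as examples, since the first separates the sets and the second separates the DKI replicates. The stretches of the other genes of the list are not shown. Capitals mark TGATGNAA on either strand, the core of the element that ATF4 and C/EBP partners bind. These letters were searched after the values of the list had been seen. They were in 2.06% of all 8951 stretches. Slc7a11 is on the minus strand at chr3:50443614-50443863 and Asns on the minus strand at chr6:7693210-7693459 (RefSeq, GRCm38.p6).
Slc7a11: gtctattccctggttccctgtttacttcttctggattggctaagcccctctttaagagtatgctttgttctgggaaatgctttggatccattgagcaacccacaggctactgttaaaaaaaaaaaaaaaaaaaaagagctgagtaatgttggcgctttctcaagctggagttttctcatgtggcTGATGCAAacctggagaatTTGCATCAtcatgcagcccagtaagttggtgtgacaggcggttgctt
Asns: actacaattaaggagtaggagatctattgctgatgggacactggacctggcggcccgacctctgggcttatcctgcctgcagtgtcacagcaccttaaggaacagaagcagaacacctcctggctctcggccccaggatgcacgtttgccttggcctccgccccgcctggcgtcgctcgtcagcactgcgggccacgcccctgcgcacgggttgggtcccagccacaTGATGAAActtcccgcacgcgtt
In Slc7a11 the letters began 66 and 47 bases before the start site and in Asns 23 bases before it.

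**Figure D4:**
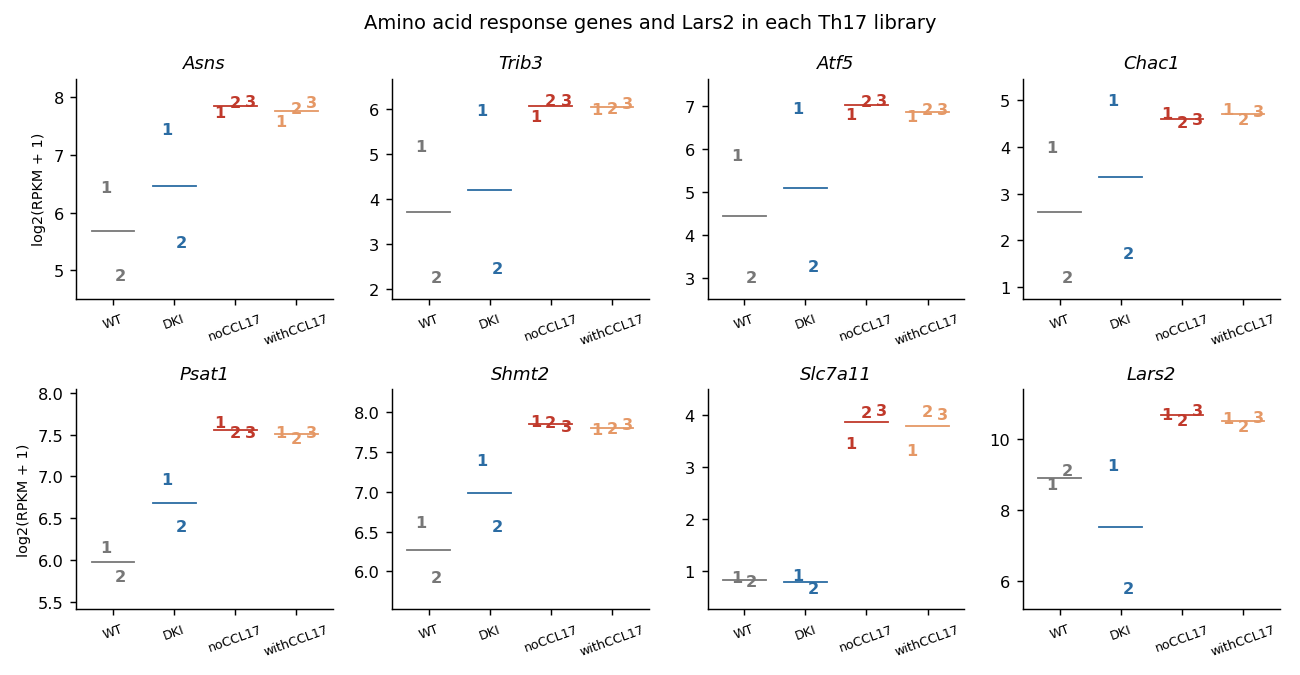
Levels of 7 amino acid response genes and of Lars2, as log2(RPKM + 1), in the 10 Th17 libraries, with digits for replicate numbers and lines for group means. For Asns, Trib3, Atf5 and Chac1, replicate 1 of the DKI and WT pairs lies far above replicate 2, and DKI replicate 1 is near the noCCL17 libraries. Slc7a11 is low in both pairs, at 0.92 and 0.67 in DKI.

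Few genes of the metabolic lists passed the test. Cholesterol synthesis genes were lower for 2 of 22 (median -0.29), fatty acid synthesis genes for none of 10 (median -0.33, with 2 at an unadjusted p under 0.05 in limma), and oxidative phosphorylation genes were higher for 2 of 22. Glycolysis and hypoxia genes were higher for 2 of 23 and lower for 3. Pdk1, a kinase that holds pyruvate out of the mitochondrion, read 5.24 and 6.14 against 4.23, 4.34 and 4.33 (-1.39 ± 0.23, adjusted p = 0.0026). Hk2, the first enzyme of glycolysis, was higher (0.63 ± 0.15, adjusted p = 0.0131) and a cord-monocyte gene.

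No interferon response gene of 25 passed in the limma fit, where 4 had an unadjusted p under 0.05, while their median of -0.50 was among the lowest of the T cell lists. Oas2, an antiviral enzyme, read 4.12 and 5.33 against 2.04, 3.39 and 2.99 (-1.92 ± 0.65, adjusted p = 0.0526). The list was uneven within sets, with library medians of 4.12 and 5.2 in the DKI pair and 3.56, 4.43 and 4.37 in the noCCL17 set. Immediate early genes were higher for 5 of 16, and Fos, Junb, Egr2, Ier3 and Atf3, the 5 called, were all cord-monocyte genes.

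Of the 101 called genes named here, 72 kept their call in every alternative that tested them and none reversed. Besides Il17a, the calls of Lrrc25, Kif11, Ccl4, Cd4, Ccr2 and Shmt2 ended in 12, 9, 8, 7, 7 and 6 of the 18, and those of Atf3, Bcl6, Ccr7, Junb and Gpr141 in 5.

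**Figure D5:**
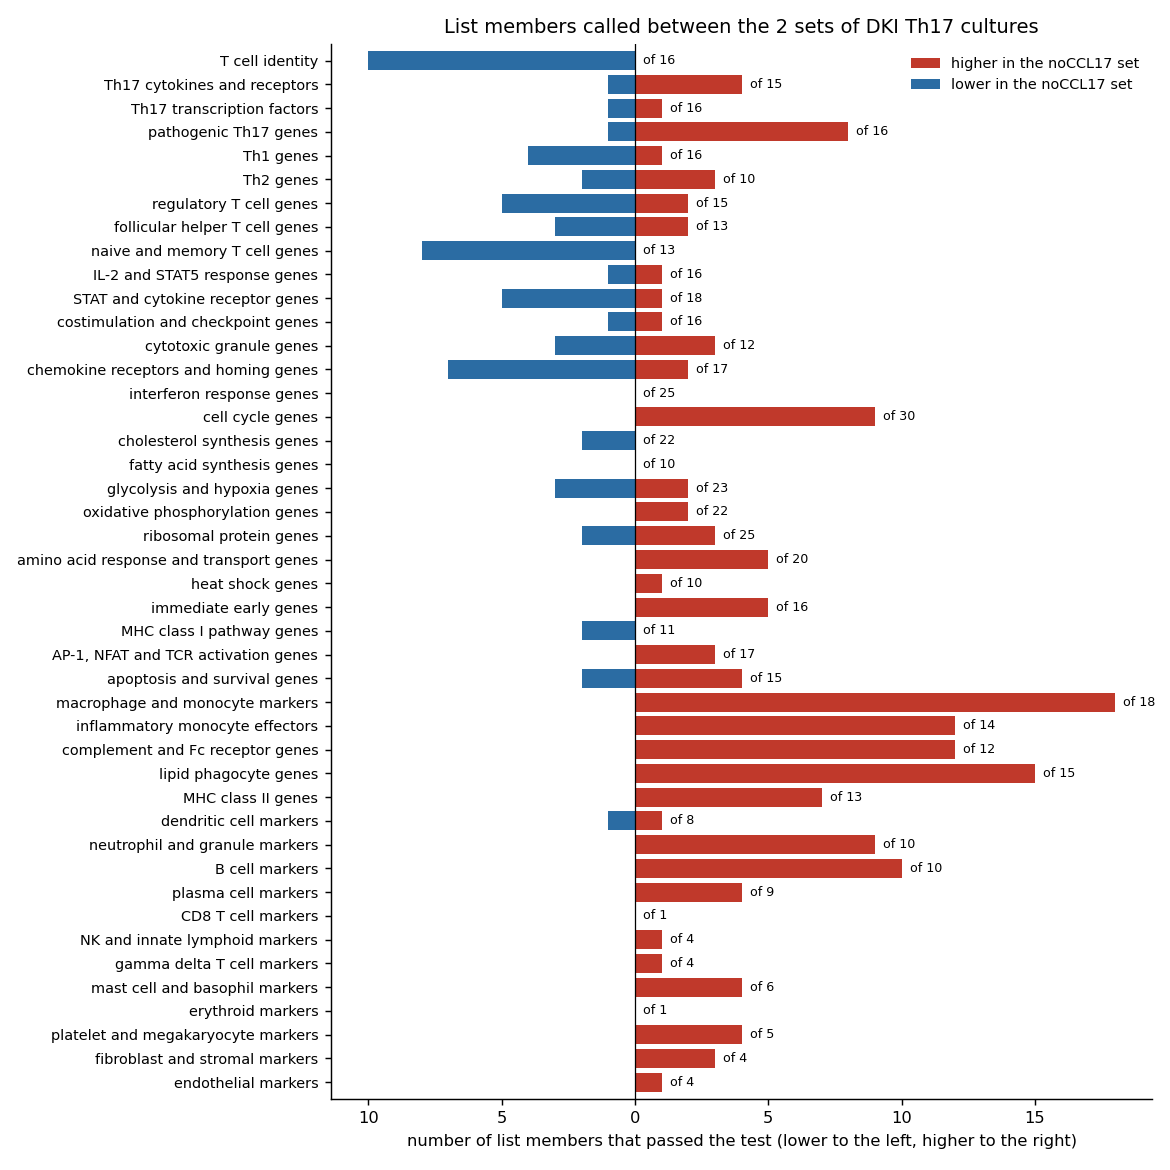
Number of tested members of each of the 44 gene lists that were higher (red, to the right) or lower (blue, to the left) in the noCCL17 set, with the number tested beside each bar. Macrophage and monocyte markers have 18 of 18 higher, T cell identity genes 10 of 16 lower, and interferon response genes none in either direction.

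T cell receptor segments were lower, opposite to the immunoglobulin segments: 19 of 51 alpha joining (Traj), 10 of 13 beta joining (Trbj), 17 of 64 alpha variable (Trav) and 10 of 22 beta variable (Trbv) segments were lower and none was higher. Together T cell receptor segments took 0.0564% and 0.0626% of the signal in the DKI pair and 0.0355% to 0.0376% in the noCCL17 set. The segments are short, with a median of 61 bases for Traj, and counting of such genes is uncertain. Gene length moved with the difference in a weak way, with medians from 0.07 in the shortest 2271 genes to -0.07 in the longest 2269.

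The spread inside the DKI pair is among the limits on which genes can be called. The fit also takes in the spread of the WT and withCCL17 libraries. Scd2, for example, read 7.92 and 7.93 in the DKI pair and 7.27, 7.18 and 7.17 in the noCCL17 set. It did not pass (limma adjusted p = 0.122), and its WT libraries read 6.34 and 7.74. In the DKI pair 646 genes differed by at least 1 log2 unit between the 2 libraries, 319 higher in replicate 1 and 327 in replicate 2. This compares with 307 genes between replicates 1 and 2 of the noCCL17 set and 31 between its replicates 2 and 3. Of these 646, 503 (77.9%) had the same sign between the WT replicates of the same numbers, against 66.1% of all tested genes. Lars2, the mitochondrial leucine transfer-RNA ligase, was the widest of those that were also called, antigen receptor segments and unnamed models left aside. It read 9.25 and 5.79 against 10.70, 10.52 and 10.81 (3.15 ± 0.78, adjusted p = 0.0152). Tff1, a secreted mucosal peptide, read 7.07 and 3.70 against 5.97, 6.33 and 6.30 and did not pass (adjusted p = 0.449). Among cord-monocyte genes, with segments and unnamed models again left aside, Gpr141 had the widest DKI spread, at 3.70 and 1.0, followed by Lrrc25, Stab1, Ccl5 and H2-Aa.

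The WT and withCCL17 libraries belong to the experiments of the DKI pair and the noCCL17 set, and their levels are given side by side, without a test. Csf2 read 6.10 and 5.63 in WT and 8.37, 8.59 and 8.66 with CCL17. Foxp3 read 5.30 and 4.83 in WT and 3.01, 3.35 and 3.23 with CCL17, and Lyz2 4.73 and 3.82 in WT and 8.40, 8.46 and 8.55 with CCL17. Il17a read 8.67 and 8.67 in WT and 10.24, 11.46 and 11.50 with CCL17. For Csf2, Foxp3 and Lyz2 the WT levels were on the side of the DKI pair and the withCCL17 levels near the noCCL17 set. The labels give no date or batch, so experiment, day of culture, sort and library preparation cannot be told apart for these sets.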

How the data were processed

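RNA was sequenced from sorted cells with KAPA mRNA HyperPrep libraries, per the labels' protocols. Reads were handled with Subread and featureCounts on mm10, per the submitters' processing notes; their versions, the annotation and the strand setting are not given in the sources used here, and so overlapping or antisense genes cannot be separated. The authors deposited log2(RPKM + 1) values for 21073 genes, with zero coded as 0.0001, which was set back to 0. The log base is not stated: read as base 2 the libraries sum to about 1094000 to 1135000 RPKM, and read as natural logarithms to 8294000 or more. Of the gene identifiers, 20857 matched RefSeq symbols. Depth was estimated from the steps between low values, where 71.0% to 73.8% of low genes came within 0.1 of a whole read, so no count test was run. limma 3.58.1 in R 4.3.3 was fitted to all 10 Th17 libraries with a mean-variance trend, on genes that reached an RPKM of 1 in 2 or more of the 5 libraries; calls are at a Benjamini-Hochberg adjusted p under 0.05, and errors are standard errors of the fit. In simulated data, shifts of 1 and 2 log2 units were recovered for 85.5% and 93.5% of 200 genes each. Alternatives changed the pseudocount, filter, scaling, variance model, division of genes and libraries used. The members, gene lists and tests were chosen with earlier results of these data known. Named genes are the 8 largest called differences per class and direction, up to 4 per list by p, a fixed set of Th and marker genes and the 5 widest DKI ranges per class; Il3, Ccl3, Ccl4, Casp1, Asns, Chac1, Atf3, Hlx, Top2a, Cdk1, Plk1, Kif11 and Kif23 were added after their values were seen. A few items are not reported here. Promoters are RefSeq on GRCm38.p6.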

Additional observations from a re-analysis of the deposited data

How the results depend on the processing

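Fitted on only the 5 libraries, 2423 genes were called, 1224 of them lower, with 1954 among the remaining genes (733 higher, 1221 lower). With library weights 1245 genes were lower, and 2117 of the remaining genes were called, 1242 of them lower. With replicates 2 and 3 averaged, chosen after seeing the data, 1977 were called (898 higher, 1079 lower), 1567 of them remaining genes (491 higher, 1076 lower). Both constructions use fewer libraries; for the weights the cause was not tested. With a pseudocount of 0.1 the macrophage list median was 4.79 and the B cell list median 2.82, and the T cell identity median was -0.41 after quantile normalization and -0.42 as TPM. No gamma delta T cell marker was left at an RPKM of 5, so that list has no value there.

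Leaving out each library in turn gave 2513 to 3526 called genes, 1109 to 1790 higher, 2069 to 3000 among the remaining genes and 670 to 1288 of those higher; the lowest values came without noCCL17 replicate 3. List medians ranged from -0.18 to 1.1 for Th17 cytokines, -0.47 to 0.00 for regulatory T cell genes, -0.01 to 0.95 for cell cycle genes and 0.28 to 1.77 for amino acid response genes. Some uncalled genes changed sign with the DKI library left out, replicate 1 and then replicate 2: Tff1 (2.5 and -0.87), Chac1 (2.87 and -0.40), Stab1 (1.9 and -0.08), Il23r (1.02 and -0.62), Il17f (2.61 and -0.50), Ccr6 (1.1 and -1.34), Ccl22 (-0.61 and 2.43) and Ccl5 (-0.14 and 1.75). Ccr6 also read 0.07 with library weights and 0.12 without noCCL17 replicate 1.

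The sets share only replicate numbers 1 and 2, which the labels do not tie to a shared mouse or day, and same-numbered deviations correlated at 0.13 and 0.10. With the replicate block 3324 genes were called, 1530 higher and 1794 lower, and 3165 were called in both fits. Depth limits the low genes: at 13600000 to 20000000 estimated reads, values near 0 rest on few reads.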
